A study of Mus musculus with 6 samples.

Results

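The genes described here are 10 components of bone morphogenetic protein (BMP) signalling, taken from the count table by their symbols: the ligands Bmp2 and Bmp4, the receptors Bmpr1a and Bmpr2, the secreted antagonists Grem1 and Nog, the ID target genes Id1, Id2 and Id3, and Bmp1. They are 10 of 50763 genes in the table, and all 10 passed the filter on low counts. Bmp1 carries the family's name but is not a ligand: it encodes a secreted metalloprotease that cuts procollagen and the BMP inhibitor chordin, and it is treated separately below. RNA was sequenced from cultured fibroblasts of mouse embryos, adherent mesenchymal cells, isolated at E13.5 on a C57BL/6 background (strain C57BL/6J in the labels) and cultured briefly. The 3 WT libraries came from embryos with unaltered SOD2, and the 3 K68R libraries from embryos of mice in which CRISPR had placed the K68R change, arginine for lysine, in SOD2, the superoxide dismutase of the mitochondrial matrix. No other allele or agent is given for either group, and the labels do not state the zygosity. The labels number the libraries as biological replicates but do not say which embryos, litters or founder lines they came from, so p-values measure only the spread between these libraries, which may be technical.

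BMP ligands are secreted dimers that bring together type I and type II receptor kinases, and the activated type I receptor phosphorylates SMAD1, SMAD5 and SMAD9, which enter the nucleus with SMAD4. Antagonists such as noggin and gremlin bind the ligands outside the cell and keep them from the receptors. The ID genes are classical direct targets: their proteins lack a DNA-binding region, pair with E proteins and thereby hold back lineage-specific transcription factors, and in mesenchymal cells BMP signalling is known for driving cartilage and bone formation.

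Library totals ran from 26200088 to 40691447 read pairs. Levels are given in CPM, read pairs scaled to a common library size after TMM normalization. On that scale 3 read pairs, taken as the floor, were worth between 0.0728 and 0.116 CPM. A gene was called when edgeR's p, adjusted by Benjamini-Hochberg over the 16730 genes tested, was under 0.05. By that rule 81.4% of all genes tested were called, 40.8% higher and 40.5% lower in K68R, so a call alone says little about any one gene. The edited gene Sod2 was expressed in every library, at 48.9, 45.6 and 47.2 CPM in K68R against 71.8, 68.9 and 69.2 CPM in WT, and its counts do not distinguish the altered codon. The log2 fold change of Sod2 was -0.57. With the TMM-scaled offsets described below it was -0.17, and with offsets centred on the mean gene 0.0057 (adjusted p = 0.892, edgeR). Of the 9 fibroblast markers, Vim, an intermediate filament gene of mesenchymal cells, had 4983 CPM in K68R against 4905 CPM in WT and was not called, while 4 others were called higher and 4 lower. With the offsets for length and GC content described below, Vim was called higher (log2 fold change 0.50) and the count was 4 higher and 5 lower. The markers had a summed level of 10766 to 10874 CPM in K68R against 7172 to 7263 CPM in WT, without offsets. Its excess in K68R lay mostly in Col1a1 (2445 against 165 CPM) and Col1a2 (2408 against 611 CPM). Their log2 fold changes of 3.89 and 1.98 were 1.62 and 0.59 with the offsets. Pdgfra (65.3 against 363 CPM) and Thy1 (198 against 606 CPM) were among the 4 lower markers, so the sum does not stand for the class.

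Among the 10 genes, the antagonists Grem1 and Nog, the ligand Bmp2, the receptor Bmpr2 and the protease gene Bmp1 were higher in K68R, and Bmp4, Bmpr1a, Id1, Id2 and Id3 were lower. Thus 5 were called higher and 5 lower, beside 40.8% and 40.5% of all genes tested. The values of the genotypes did not overlap for any of the 10, which was true of 82.3% of all genes tested. A change of at least 2-fold was reached by 4 of the 10, Bmp1, Bmp2 and Nog upward (22.1% of all genes tested) and Id1 downward (7.57%), beside 29.7% in either direction. Tested against a 1.5-fold bound, 8 of the 10 were called, all but Bmp4 and Bmpr1a, beside 41% of all genes tested. These sizes are without offsets. With TMM-scaled offsets Bmp1, Id1, Id2 and Id3 differed by less than 1.5-fold, and Bmp2, Grem1, Nog and Bmpr2 by more. The median log2 fold change of K68R over WT was 0.18 over the 10 genes and -0.01 over all genes tested.

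**Figure D1:**
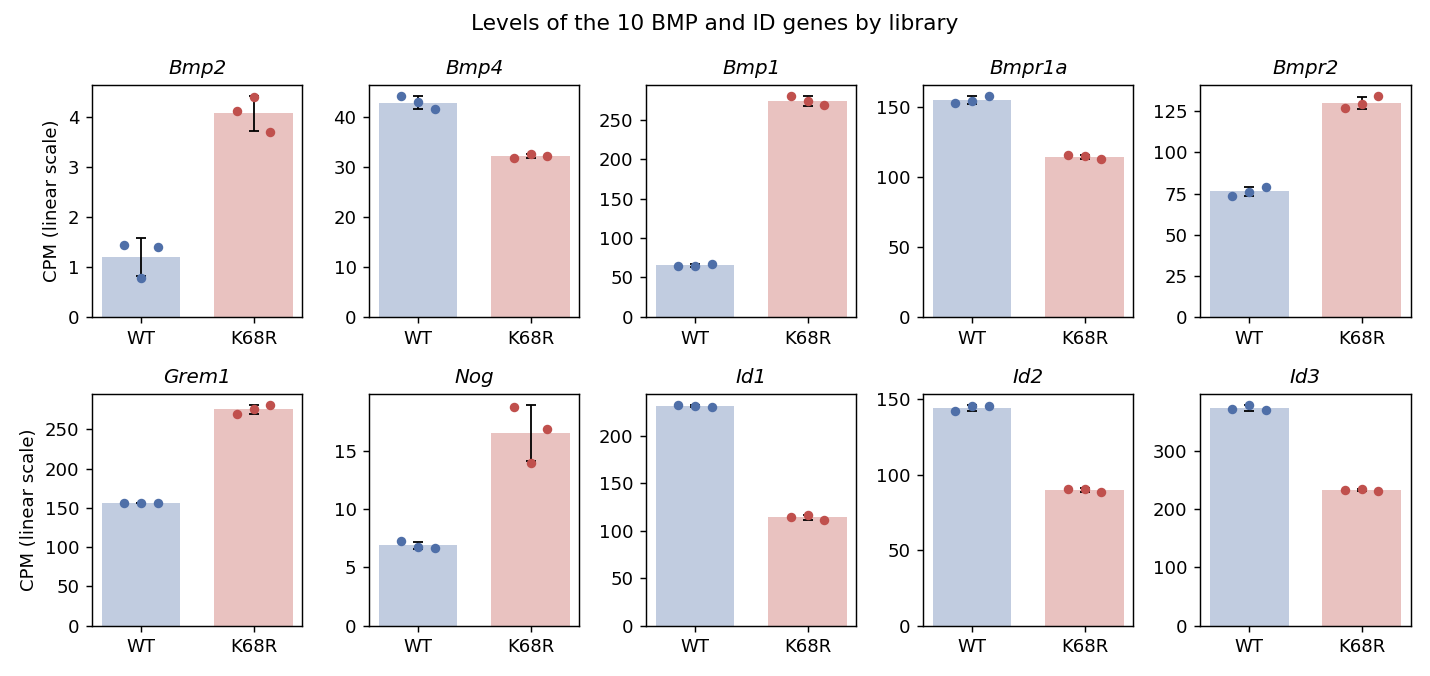
CPM of each gene in each library, on a linear axis that starts at 0 and differs between panels; points are libraries, bars are means and error bars the SD of 3 libraries. In every panel the points of WT and K68R are apart, with Bmp2, Bmp1, Bmpr2, Grem1 and Nog higher and Bmp4, Bmpr1a, Id1, Id2 and Id3 lower in K68R; with offsets for length and GC content centred on the mean gene, Bmpr1a, Id2 and Id3 change sign and are not called.

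Across this data set fold changes varied with the length and the GC content of the transcript, and a smooth surface over both took up 39.5% of the variance among 15673 genes, which are not independent replicates. Fold changes of the 10 genes, and of part of the other genes below, are therefore also given from a second fit. In it a surface of the same kind, fitted to each library, was entered as offsets. Fold changes below without an offset value come from the fit without offsets. The offsets were scaled by TMM as in the fit without them (5884 genes higher and 5936 lower) or, as a choice made after seeing the data, centred on the mean gene (7701 higher and 4326 lower). Without offsets the split was 6833 higher and 6780 lower. With TMM-scaled offsets all 10 genes kept the direction and the call they had without them, 5 higher and 5 lower, beside 37.5% higher, 37.9% lower and 75.4% in either direction among all genes, and with mean-gene centring 1 of the 5 lower genes, Id1, was still called. The sizes changed more: with TMM-scaled offsets Bmp2, Grem1 and Nog differed by 2.85-fold, 2.50-fold and 2.30-fold and Bmpr2 by 1.68-fold, while Id1 (1.49-fold) and Bmp1 (1.23-fold) no longer reached 2-fold and Id2 (1.10-fold) and Id3 (1.12-fold) no longer reached 1.5-fold.

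The ligand genes moved in opposite directions from very different levels. Bmp2 (chromosome 2, 133394079 to 133404816, plus strand, build mm39; 3566 exonic bases) encodes a ligand that induces bone and cartilage. The K68R libraries held 4.11, 4.39 and 3.69 CPM of it, and the WT libraries 1.43, 0.768 and 1.40 CPM. Every K68R value was above every WT value, on counts of 106, 137 and 114 read pairs against 59, 24 and 47. The difference was 3.33-fold (log2 fold change 1.73, standard error 0.178, adjusted p = 6.69e-14, edgeR), and 1.51 on the log2 scale with offsets.

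Bmp4 (chromosome 14, 46620982 to 46628126, minus strand, mm39; 2059 exonic bases) encodes the close relative of BMP2 that patterns the early mesoderm and limb. It stood at 31.7, 32.4 and 32.1 CPM in K68R against 44.0, 42.9 and 41.4 CPM in WT. The K68R values lay within 1 CPM of each other and all below WT, a 1.33-fold lower mean of 32.1 ± 0.354 against 42.8 ± 1.31 CPM (SD, n = 3). The log2 fold change was -0.42 with a standard error of 0.0432 (adjusted p = 9.05e-14, edgeR), -0.20 with TMM-scaled offsets and -0.022 with mean-gene centring (adjusted p = 0.649, edgeR). Tested against a 1.5-fold change the gene was not called (adjusted p = 1, edgeR). A gene on the opposite strand, Gm15217, shares 4.08% of the exonic bases of Bmp4, and the counting did not use strand.

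Both receptors were well expressed and also parted. Bmpr2, the type II receptor kinase (chromosome 1, 59802721 to 59917240, plus strand, mm39; 11804 exonic bases), was at 127, 129.5 and 134 CPM in K68R against 73.4, 76.3 and 79.2 CPM in WT. All K68R libraries were above all WT libraries, by 1.71-fold (log2 fold change 0.78, standard error 0.0300, adjusted p = 4.79e-35, edgeR). With offsets the log2 fold change was 0.75. Bmpr1a, a type I receptor kinase (chromosome 14, 34133018 to 34225335, minus strand, mm39; 6080 exonic bases), was at 116, 115 and 113 CPM in K68R against 153, 154 and 158 CPM in WT. It was lower in each K68R library, by 1.35-fold on average (log2 fold change -0.44, standard error 0.0259, adjusted p = 7.97e-25, edgeR). That call ended against a 1.5-fold bound (adjusted p = 1, edgeR), and the log2 fold change of -0.12 with TMM-scaled offsets became 0.053 with mean-gene centring (adjusted p = 0.0511, edgeR).

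Both antagonists were higher in K68R, with and without offsets. Grem1 (chromosome 2, 113579020 to 113588993, minus strand, mm39; 1639 exonic bases) encodes gremlin, which binds BMP2 and BMP4 and is known from limb buds and fibroblasts. It was at 269, 276 and 281 CPM in K68R against 156, 156 and 156 CPM in WT. The WT libraries were nearly identical and every K68R library exceeded them, by 1.77-fold in the means of 276 ± 5.92 and 156 ± 0.236 CPM (SD, n = 3). The log2 fold change was 0.82 (standard error 0.0226, adjusted p = 8.37e-44, edgeR). It was 1.32 with TMM-scaled offsets, 1.497 with mean-gene centring and 1.25 in a test limited to genes shorter than 4000 exonic bases with less than 50% GC.

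Nog (chromosome 11, 89191464 to 89193385, minus strand, mm39; 1922 exonic bases) encodes noggin, a BMP inhibitor essential for joint formation. It stood at 18.8, 14.0 and 16.9 CPM in K68R against 7.25, 6.78 and 6.65 CPM in WT. The second K68R library was the lowest of its group and still above the highest WT library. The difference was 2.38-fold (log2 fold change 1.25, standard error 0.0854, adjusted p = 6.36e-20, edgeR), and 1.203 on the log2 scale with TMM-scaled offsets.

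The ID genes were all lower in K68R without offsets and with TMM-scaled offsets, although Id2 and Id3 changed sign, uncalled, with mean-gene centring. Id1 (chromosome 2, 152578171 to 152579330, plus strand, mm39; 1160 exonic bases), the best known BMP target of the family, was at 115, 116 and 111 CPM in K68R against 233, 231 and 230.4 CPM in WT. Every K68R library was far below every WT library, a 2.03-fold lower mean of 114 ± 2.63 against 231 ± 1.17 CPM (SD, n = 3; log2 fold change -1.02, standard error 0.0242, adjusted p = 9.17e-48, edgeR). With TMM-scaled offsets the log2 fold change was -0.57, and with mean-gene centring it was -0.40 (adjusted p = 5.49e-24, edgeR).

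Id2 (chromosome 12, 25143798 to 25146091, minus strand, mm39; 1272 exonic bases), which also pairs with E proteins and is known for its part in lymphoid development, was at 90.3, 90.7 and 88.2 CPM in K68R against 142, 145 and 145 CPM in WT. Its libraries did not overlap between genotypes, with a 1.61-fold lower level in K68R (log2 fold change -0.68, standard error 0.0274, adjusted p = 3.49e-34, edgeR). With TMM-scaled offsets that was -0.14, in the test limited to short genes of low GC content -0.25, and with mean-gene centring 0.033 (adjusted p = 0.257, edgeR).

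Id3 (chromosome 4, 135871133 to 135872703, plus strand, mm39; 953 exonic bases), the shortest of the 10 genes and the ID gene with the highest level, was at 233, 235 and 230.4 CPM in K68R against 370.3, 379 and 369.5 CPM in WT. Again no K68R library reached the lowest WT library, and the mean was 1.60-fold lower (log2 fold change -0.68, standard error 0.0209, adjusted p = 5.72e-41, edgeR). With TMM-scaled offsets it was -0.17, and with mean-gene centring 0.0081 (adjusted p = 0.722, edgeR). The fourth family member, Id4, was chosen for mention after its values were seen: it had 60.3 ± 0.846 CPM in K68R against 78.1 ± 4.62 CPM in WT (SD, n = 3). The log2 fold change of Id4 was -0.38, which with TMM-scaled offsets became 0.011 and was not called. With mean-gene centring it was 0.18, called higher in K68R (adjusted p = 5.09e-06, edgeR).

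Bmp1 (chromosome 14, 70711998 to 70758280, minus strand, mm39; 5743 exonic bases) had the largest fold change of the 10 genes without offsets. It was at 280.2, 273 and 268 CPM in K68R against 65.1, 64.2 and 67.4 CPM in WT. The lowest K68R library was far above the highest WT library, a 4.18-fold difference (log2 fold change 2.06, standard error 0.0261, adjusted p = 1.25e-64, edgeR). Its log2 fold change was 0.30 with TMM-scaled offsets (adjusted p = 7.83e-17, edgeR) and 0.47 with mean-gene centring. Its GC content of 56.7% was the highest of the members. Nog, with 56.2% GC and fewer exonic bases, had log2 fold changes of 1.25 and, with TMM-scaled offsets, 1.203. An opposite-strand gene, Gm52136, shares 2.18% of its exonic bases.

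**Figure D2:**
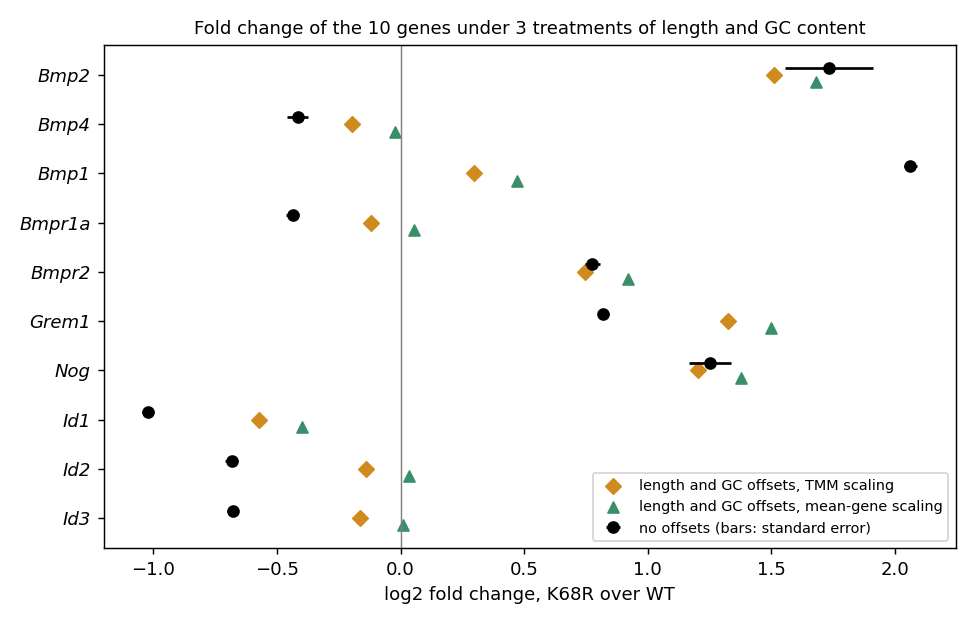
Log2 fold change of K68R over WT for each gene, without offsets (circles, bars are standard errors), with TMM-scaled offsets for length and GC content (diamonds) and with offsets centred on the mean gene (triangles). Grem1, Nog, Bmp2 and Bmpr2 stay above 0.7, Bmp1 falls from 2.06 to 0.30, and Bmpr1a, Id2 and Id3 change sign between the treatments with offsets.

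Per kilobase of exon, which allows levels to be compared between genes, Grem1 changed places with Id1 and Id2. In WT the order was Id3 at 391 ± 5.22, Id1 at 199 ± 1.01, Id2 at 113 ± 1.61 and Grem1 at 95.3 ± 0.144 CPM per kilobase (SD, n = 3). In K68R it was Id3 at 244 ± 2.31, Grem1 at 168 ± 3.61, Id1 at 98.3 ± 2.27 and Id2 at 70.5 ± 1.07 CPM per kilobase (SD, n = 3). Bmp1 stood below Bmpr1a and Bmp4 in WT, at 11.4 against 25.5 and 20.8, and above both in K68R, at 47.7 against 18.9 and 15.6 CPM per kilobase. That exchange is one of levels without offsets. With TMM-scaled offsets the log2 fold changes of Bmp1, Bmpr1a and Bmp4 were 0.30, -0.12 and -0.20. Levels with offsets were not computed for either genotype, so the order under them was not tested. Bmpr2, Nog and Bmp2 closed the order in both genotypes, with Bmp2 at 0.337 in WT and 1.14 in K68R (CPM per kilobase). The 3 values of neighbours in either order did not overlap.

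**Figure D3:**
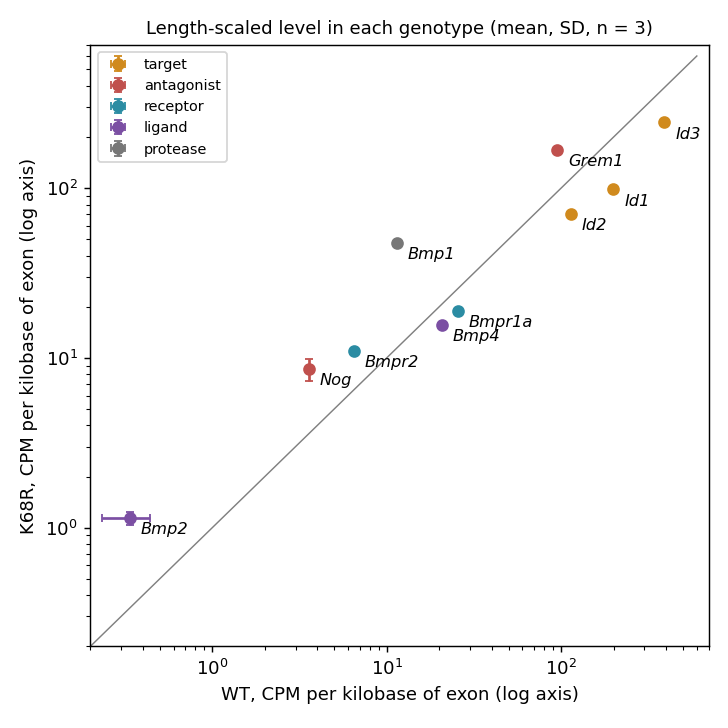
Mean level in CPM per kilobase of exon in WT (horizontal) and K68R (vertical), both on log axes, with SD of 3 libraries as error bars and the line of equal levels. Grem1, Nog, Bmpr2, Bmp1 and Bmp2 lie above the line and the ID genes, Bmp4 and Bmpr1a below it; these levels carry no length and GC offsets, with which Bmp1's log2 fold change was 0.30 and, centred on the mean gene, Bmpr1a, Id2 and Id3 changed sign.

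Of the 10 genes, 6 had an entry in RefSeq's promoter windows of build GRCm38.p6. The 250 bases before the start are shown for Id2 and Id3, which were lower together without offsets, and for Grem1, which was higher, all written along the gene's strand. Capitals mark GGCGCC, the GC-rich element to which SMAD1 and SMAD5 bind, and CAGAC on either strand (GTCTG on the other), the SMAD box, which do not overlap each other here.
Id2 (chr12:25096093-25096342, minus strand): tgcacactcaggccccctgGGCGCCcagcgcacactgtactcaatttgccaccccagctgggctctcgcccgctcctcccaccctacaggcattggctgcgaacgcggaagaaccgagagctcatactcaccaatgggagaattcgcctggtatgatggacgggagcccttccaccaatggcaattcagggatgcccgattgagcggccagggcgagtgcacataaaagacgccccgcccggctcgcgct
Id3 (chr4:136143572-136143821, plus strand): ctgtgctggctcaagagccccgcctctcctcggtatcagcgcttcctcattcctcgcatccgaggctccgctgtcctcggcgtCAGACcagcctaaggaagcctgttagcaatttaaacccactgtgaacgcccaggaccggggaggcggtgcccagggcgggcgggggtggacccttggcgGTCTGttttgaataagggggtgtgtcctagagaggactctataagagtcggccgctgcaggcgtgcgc
Grem1 (chr2:113758649-113758898, minus strand): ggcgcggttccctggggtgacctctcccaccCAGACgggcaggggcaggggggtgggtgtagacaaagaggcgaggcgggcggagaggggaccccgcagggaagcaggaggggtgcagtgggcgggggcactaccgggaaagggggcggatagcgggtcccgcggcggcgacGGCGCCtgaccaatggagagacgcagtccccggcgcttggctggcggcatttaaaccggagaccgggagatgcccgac
The Id2 window held 1 GGCGCC and no CAGAC, the Id3 window no GGCGCC and 2 CAGAC, and the Grem1 window 1 of each. GGCGCC occurred in 9.59% and CAGAC in 42.2% of 32851 windows of the same length. Over the 6 members with a window, 4 held GGCGCC and 2 held CAGAC. These 6 windows had 62.8% to 78.8% GC, and the shares over all windows were not matched for GC content. Whether the members hold more of either element than windows of like GC content was not tested. The windows of Bmpr1a and Bmpr2 each held 1 of the former, and the Bmp4 window held neither.

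The other BMP pathway genes were listed by role. Of 61 genes, 53 were tested, and 33 of these were higher and 15 lower (5 not called), beside 40.8% and 40.5% of all genes tested. Their median log2 fold change was 0.86, and 0.25 with TMM-scaled offsets. With those offsets 29 were higher, 16 lower and 8 not called. Over all genes tested the medians were -0.01 and 0.00496.

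Ligands other than Bmp2 and Bmp4 were mostly of low level and mostly higher. Of 9 tested, 6 were higher and 2 lower, beside 40.8% and 40.5% of all genes tested. Gdf6, a ligand needed for joints and the skull, was at 35.7 ± 0.813 CPM in K68R against 10.1 ± 0.624 CPM in WT, Bmp6 at 10.99 ± 0.657 against 1.67 ± 0.0805 CPM, and Bmp8b at 5.05 ± 0.251 against 0.652 ± 0.156 CPM (SD, n = 3). Their log2 fold changes of 1.81, 2.72 and 2.93 (adjusted p = 2.41e-39, 7.42e-32 and 2.19e-23, edgeR) were 1.60, 1.56 and 2.51 with TMM-scaled offsets.

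Of 10 receptors and co-receptors, 7 were higher, 2 lower and 1 not called, beside 40.8% and 40.5% of all genes tested. With TMM-scaled offsets 5 were higher, 3 lower and 2 not called, beside 37.5% and 37.9%, and the median log2 fold change was 0.35 in place of 1.23. Eng, the co-receptor endoglin, rose 6.10-fold from 14.5 ± 0.801 to 88.5 ± 0.387 CPM, and Acvrl1, the type I receptor ALK1 that acts with it, 3.42-fold from 15.3 ± 0.486 to 52.3 ± 2.72 CPM (SD, n = 3; adjusted p = 1.75e-57 and 1.59e-43, edgeR). With TMM-scaled offsets their log2 fold changes of 2.61 and 1.78 were 1.53 and 0.74. Acvr1, the type I receptor ALK2, was 2.23-fold higher, and Rgma, a co-receptor with 60.8% GC, 3.35-fold higher, the latter not called with TMM-scaled offsets (log2 -0.061, adjusted p = 0.555, edgeR). Bmpr1b, another BMP type I receptor, was at 15.6 ± 0.824 CPM in K68R against 15.4 ± 1.11 CPM in WT (SD, n = 3), which differ by 0.012 on the log2 scale (adjusted p = 0.872, edgeR).

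Because Eng, Acvrl1 and Id1 are also strongly expressed by endothelial cells, the endothelial markers are given beside them. Of 6 markers 5 were tested, with 2 higher and 3 not called, where 40.8% of all genes tested were higher. The sum of the markers was 96.2 to 97.9 CPM in K68R against 25.0 to 27.4 CPM in WT. Nearly all of it was Kdr, at 90.7 against 20.4 CPM. Emcn, the other marker called higher, was at 2.19 against 0.939 CPM. The junction genes Pecam1 and Cdh5 were low and not called, at 0.488 and 0.974 CPM in K68R against 0.677 and 1.09 CPM in WT. In bulk libraries, fewer cells of a type and less RNA per cell cannot be told apart. The part of endothelial cells in the levels of Eng, Acvrl1 and Id1 was not tested.

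Other antagonists were divided in direction: of 15 tested, 6 were higher and 7 lower, and 2 were not called. Of all genes tested 40.8% were higher and 40.5% lower. With TMM-scaled offsets 6 antagonists were higher, 8 lower and 1 not called, beside 37.5% and 37.9%. The median of their log2 fold changes was -0.06. Crim1, a membrane protein that tethers BMPs, was 3.30-fold higher, with 487 ± 13.6 against 148 ± 4.11 CPM (SD, n = 3; adjusted p = 1.54e-61, edgeR). Fst, the activin and BMP binder follistatin, was 1.71-fold lower, with 112 ± 0.885 against 192 ± 2.96 CPM (SD, n = 3), and its log2 fold changes were -0.78 and, with TMM-scaled offsets, -0.38. Nbl1, a relative of gremlin with 61.1% GC, was 2.51-fold higher, but its log2 fold change of 1.33 was -0.26 with TMM-scaled offsets.

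Around Bmp1, its relative Tll1 was 1.66-fold higher, with 120.1 ± 2.13 against 72.4 ± 1.197 CPM (SD, n = 3), and 0.68 on the log2 scale with TMM-scaled offsets. The procollagen enhancers that assist the protease did not follow: Pcolce2 was 2.36-fold lower, and Pcolce was at 436 ± 7.89 against 476 ± 12.9 CPM (SD, n = 3), where -0.13 on the log2 scale became 0.14 with TMM-scaled offsets.

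Among the SMADs and the ubiquitin ligases that degrade them, Smad1 was at 38.2 ± 1.38 CPM in K68R against 37.8 ± 1.95 CPM in WT (SD, n = 3; log2 fold change 0.02, adjusted p = 0.67, edgeR) and Smad5 was 1.27-fold lower. Smad9, the third receptor-activated SMAD of the BMP branch, was 3.59-fold higher, with 20.4 ± 0.742 against 5.67 ± 0.354 CPM (SD, n = 3; adjusted p = 4.34e-33, edgeR), with 1.84 and, with TMM-scaled offsets, 1.76 on the log2 scale. Smurf1 was 3.39-fold higher, with a log2 fold change of 1.76 that was 0.34 with TMM-scaled offsets, and Smurf2 1.58-fold higher.

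Other genes known as BMP targets were mostly higher where Id1, Id2 and Id3 were lower: of 10 tested, 9 were higher and 1, Id4, was lower, beside 40.8% and 40.5% of all genes tested. With TMM-scaled offsets 7 were higher, none lower and 3 not called, beside 37.5% and 37.9%. Msx2, a homeobox factor of limb and skull mesenchyme, was at 35.3, 35.3 and 33.1 CPM in K68R against 2.40, 2.11 and 2.27 CPM in WT. This 15.2-fold difference (log2 fold change 3.92, standard error 0.0819, adjusted p = 3.35e-51, edgeR) was 4.31 on the log2 scale with TMM-scaled offsets. The inhibitory SMAD genes, which BMP induces as feedback, were also higher without overlap: Smad6 rose 2.81-fold from 20.2 ± 1.32 to 57.2 ± 1.18 CPM and Smad7 3.94-fold from 16.7 ± 0.0832 to 65.7 ± 3.00 CPM (SD, n = 3; adjusted p = 3.86e-41 and 1.2e-48, edgeR). Their log2 fold changes of 1.49 and 1.98 were 0.18 and 0.61 with TMM-scaled offsets, and 31.5% of the exonic bases of Smad7 are shared with an opposite-strand gene. Atoh8, a helix-loop-helix factor, was 2.57-fold higher, and its log2 fold change of 1.36 was 0.027 with TMM-scaled offsets (adjusted p = 0.596, edgeR).

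**Figure D4:**
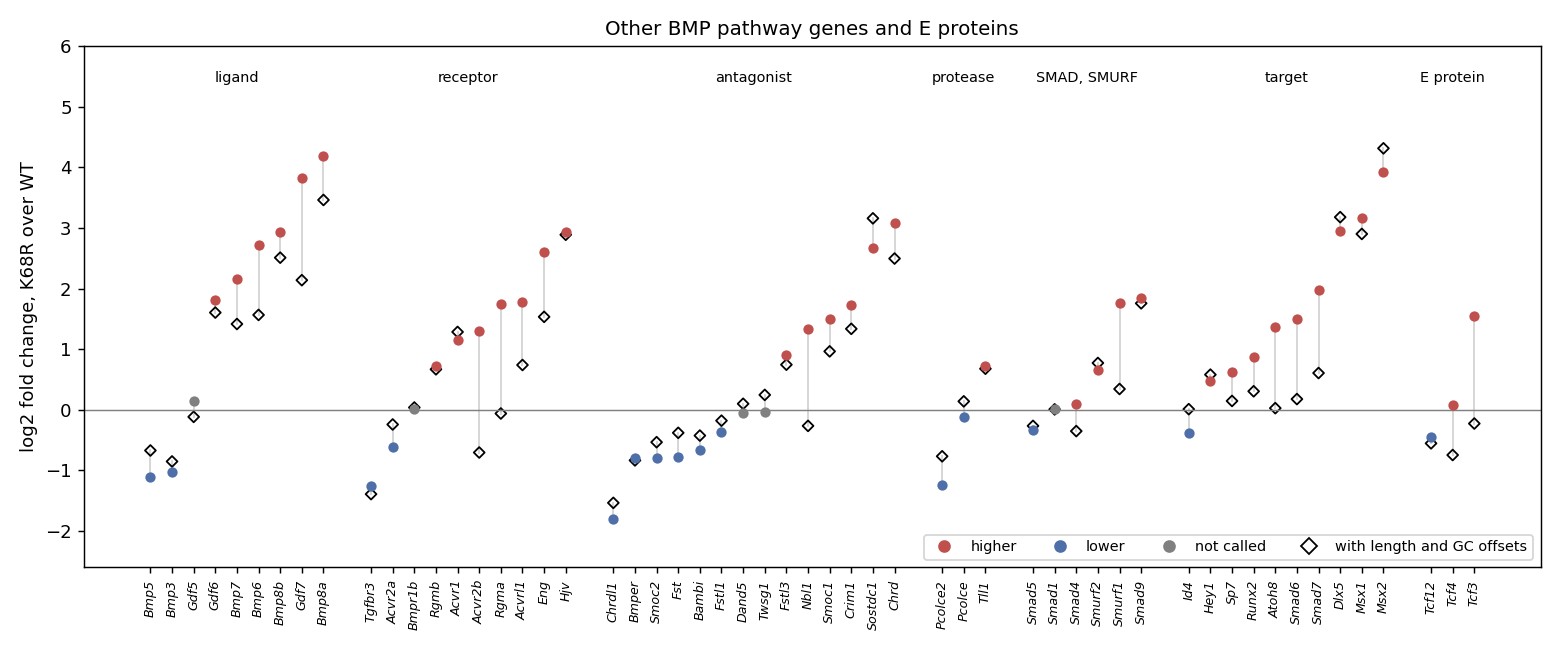
Log2 fold change of K68R over WT for the tested BMP pathway genes and E proteins, 1 gene left out, grouped by role, without offsets (filled, coloured by call at an adjusted p under 0.05) and with TMM-scaled length and GC offsets (open diamonds). Msx2 stands highest with the offsets at 4.31, and Acvr2b, Rgma, Nbl1, Pcolce, Smad4, Id4, Tcf3 and Tcf4 among the called genes, and Gdf5, Twsg1 and Dand5 among those not called, lie on opposite sides of 0 in the 2 fits.

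Markers of cartilage, skeletal muscle, fat and epithelium moved with genotype too. The counts below stand beside 40.8% higher and 40.5% lower among all genes tested, and 37.5% and 37.9% with TMM-scaled offsets. Of the 6 cartilage markers, 4 were tested, with 3 higher and 1 not called, and with TMM-scaled offsets 2 were higher, 1 lower (Comp) and 1 not called (Acan). They summed to 158 to 165 CPM in K68R against 10.3 to 11.2 CPM in WT, and Matn1 had at most 3 read pairs in any library. Most of the K68R sum was Col2a1, at 134 CPM in K68R against 0.588 CPM in WT. Col2a1, with 62.2% GC, had log2 fold changes of 7.83 and, with TMM-scaled offsets, 5.04. All 6 skeletal muscle markers were higher, with a sum of 103 to 108 against 20.1 to 20.8 CPM. The 5 adipocyte markers summed to 3.76 to 4.89 CPM in K68R against 71.7 to 79.5 CPM in WT, and Plin1 and Lep had no read pair in K68R. All 6 epithelial markers were lower, with and without TMM-scaled offsets, and summed to 18.4 to 20.5 CPM in K68R against 46.0 to 47.6 CPM in WT, with the keratin genes Krt5 and Krt14 at 0.0603 and 0.180 against 3.97 and 6.32 CPM. The part of these lineages in the levels of Msx2, Smad6, Smad7 or the 10 genes was not tested.

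The ID proteins act by pairing with E proteins, of which all 3 were expressed. Tcf12 was 1.37-fold lower, with log2 fold changes of -0.45 and, with TMM-scaled offsets, -0.55. Tcf3, with 61.0% GC, was 2.93-fold higher, with 119 ± 3.54 against 40.7 ± 1.98 CPM (SD, n = 3), but 1.55 on the log2 scale was -0.23 with TMM-scaled offsets. Tcf4 was at 102 ± 2.93 against 96.4 ± 2.04 CPM (SD, n = 3), and 0.08 was -0.75 with TMM-scaled offsets.

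With 2 genotypes of 3 libraries, the profile of a gene over the 6 libraries is mainly its fold change. The genes nearest to Id1 in centred log2 CPM, among 10842 other genes at 5 CPM or more, were Rpl5, Ddx39a and Rbm3, at distances of 0.026, 0.038 and 0.043. Nearest to Bmp4 were Zfp706, Hsd17b10 and Arf1, and nearest to Grem1 were Cpt1a, Nol10 and Dyrk2.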

How the data were processed

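RNA was sequenced from 6 libraries of mouse embryonic fibroblasts, 3 K68R and 3 WT, grouped by their titles. Per the labels' protocols, RNA with an integrity number above 4 went into a stranded poly(A) library kit. The submitters' processing notes name build mm39 and the tools featureCounts 2.0.6, HISAT2 2.2.1, bcl2fastq and SAMtools. The values the authors deposited are raw, whole-number counts for each gene, and per the file headers read pairs were counted over RefSeq exons of mm39 without a strand option, so overlapping genes on opposite strands cannot be separated. The exonic length of each gene comes from the same file.

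The analysis used edgeR 4.0.16 under R 4.3.3: filterByExpr, TMM, and the robust quasi-likelihood F test with genotype as the only term. Standard errors are the log2 fold change divided by the square root of F. Offsets for length and GC content came from a smooth surface per library (mgcv 1.9.3) over 93.7% of genes tested, with GC content of GENCODE M21 transcripts joined by symbol. DESeq2 1.42.0 and limma 3.58.1 (voom) were alternatives. The edgeR test was tested on simulated data with known changes in 200 of 16730 genes, in both directions, and called all 200 with 6 false calls. Most genes were unchanged there, unlike in these data, so the simulation does not test the scaling or the offsets. The floor covers counting error only, while SDs and standard errors reflect the spread between libraries. Libraries of the same genotype were compared for duplicates: chi-square per gene ranged from 1.88 to 2.32, more than sampling gives, and none was dropped.

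The genes named beside the 10 members follow a rule: per role, up to 4 called genes with the smallest p with a mean of at least 5 CPM in the genotype where they are higher, any listed gene that was not called, and the genes nearest in profile to Id1, Bmp4 and Grem1. Members and lists were chosen with earlier results of these data known. Promoter windows are RefSeq's, of GRCm38.p6, and only their sequences were used. 1 gene that the rule names is not reported here, though counts over the lists include it.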

Additional observations from a re-analysis of the deposited data

How the results depend on the processing

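Over 18 alternatives, of which 17 were planned, the 10 genes gave 172 fold changes, and 166 kept their direction and their side of the threshold. The exceptions were Bmp4 and Bmpr1a against a 1.5-fold bound, and Bmp4 (-0.022), Bmpr1a (0.053), Id2 (0.033) and Id3 (0.0081; log2) with offsets centred on the mean gene. The 1.5-fold bound and a threshold of 0.01 reuse the main fold changes, so no direction could change there. All alternatives draw on the same 6 libraries. The share of all genes that likewise kept their call was not computed, so this count does not set the members apart. Against the 1.5-fold bound 6855 genes were called (41%), among them 3 members lower and all 5 higher. With the mean-gene centring 1 member was called lower. That centring shifts the median of all genes by 0.28 (log2) relative to the fit without offsets, and upper quartile scaling shifts it by -0.11. Among genes under 4000 exonic bases and under 50% GC alone, 2716 of 3978 were called, 1352 higher and 1364 lower. Grem1 and Id2 were the only members within both limits, and Grem1 was called higher and Id2 lower. Of the pathway genes 4 were higher and 5 lower. Members and pathway genes above either limit were not tested there. That setting also shifts the median by 0.43 (log2), so its counts cannot be set against those of the full fit. Leaving out each library in turn gave 13403 to 13637 genes called, always 5 members higher and 5 lower, with log2 fold changes of 1.496 to 1.88 for Bmp2 and 1.15 to 1.36 for Nog. With the replicate number as a block 13567 genes were called and no call among the 10 members changed. Same-numbered libraries correlated at 0.0096 to 0.0303 in their deviations from the group means, so the numbers do not pair the libraries. Counts of 24 to 59 read pairs limit the precision of Bmp2 in WT.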

Other observations

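Several BMP pathway genes of low level, chosen for mention after their values were seen, differed by large factors, in both directions. Chrd, which encodes the inhibitor chordin cut by the Bmp1 protease, was at 2.81 ± 0.355 CPM in K68R against 0.321 ± 0.103 CPM in WT (SD, n = 3), with a log2 fold change of 3.08 and, with TMM-scaled offsets, 2.49. Sostdc1, an antagonist known from tooth development, was at 2.31 ± 0.380 against 0.353 ± 0.0512 CPM (SD, n = 3), with 2.67 and 3.16. The ligand Bmp8a was at 2.80 ± 0.524 against 0.143 ± 0.0924 CPM (SD, n = 3), near the floor in WT, and Bmp7 at 2.33 ± 0.0300 against 0.520 ± 0.0943 CPM (SD, n = 3). Others were lower in K68R: Chrdl1, which encodes a relative of chordin, had log2 fold changes of -1.81 and, with TMM-scaled offsets, -1.53, and the ligands Bmp5 and Bmp3 had -1.11 and -1.03, which were -0.67 and -0.85 with TMM-scaled offsets.

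Homeobox targets beside Msx2 had large values as well, again chosen after they were seen. Dlx5, a factor of bone-forming mesenchyme, was at 5.06 ± 0.0821 CPM in K68R against 0.678 ± 0.279 CPM in WT (SD, n = 3), with log2 fold changes of 2.94 and, with TMM-scaled offsets, 3.18. Msx1 was at 7.67 ± 0.905 against 0.851 ± 0.107 CPM (SD, n = 3), with 3.17 and 2.90, although the antisense gene Msx1os shares 58.9% of its exonic bases. Of the 5 osteoblast markers, Ibsp, Bglap, Alpl and Dmp1 had too few counts to be tested, and Spp1, a matrix gene that other cells express too, had 458 CPM in K68R against 433 CPM in WT (log2 fold change 0.083, adjusted p = 0.000132, edgeR), with 0.58 on the log2 scale after TMM-scaled offsets.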
